A study of Mus musculus with 8 samples.

Results

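Lymphoid tissue organizer stroma is the name for mesenchymal cells that attract and hold lymphocytes where lymphoid tissue forms. Lymphotoxin from lymphoid tissue inducer cells and B cells engages the lymphotoxin β receptor on these cells. The receptor acts through NF-κB, in part through dimers of RelB and p52, and raises homeostatic chemokines, cytokines for lymphocyte survival and adhesion molecules. In the intestine such cells are known from Peyer's patches, cryptopatches and isolated lymphoid follicles. Described here are 10 genes that are targets or partners of this signal in stroma, out of 53801 rows in the deposited gene table. They were taken by gene name and are the chemokine genes Ccl19, Ccl21a and Cxcl13, the cytokine genes Tnfsf11, Tnfsf13b and Il7, the adhesion genes Madcam1, Vcam1 and Icam1, and Pdpn.

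RNA was sequenced from stroma of mouse small intestine, separated by flow cytometry into a PDGFRα+ fraction (4 libraries) and a PDGFRα- fraction (4 libraries). All sorted cells were YFP+ and negative for CD45 and CD31, which mark leukocytes and endothelium. All came from the LTβRfloxPDGFRα/YFP mice of the labels, so the floxed allele of the lymphotoxin β receptor gene was shared by both fractions, and libraries without it were not analysed here. Age, sex, the element that drives YFP and the number of mice per library are not given in the labels. The comparison asks how the fractions differ, and not what the loss of the receptor does. Replicates are libraries numbered 1 to 4 in the titles. Nothing says that they came from separate mice, so a p-value here weighs only how far these libraries scatter, and part of that scatter may be technical.

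Library totals were 13014118 to 35115771 counts for PDGFRα+ and 12926651 to 26900320 for PDGFRα-, so that 3 counts in a library corresponded to 0.086 to 0.234 CPM (counts per 1e+06 counts, scaled by TMM). Fibroblast markers were abundant in all libraries. Of the 6 fixed markers all were tested, and their sum was 87400 to 113000 CPM in PDGFRα+ and 118000 to 167000 CPM in PDGFRα- libraries. The sums did not overlap, and the part of this difference in the results was not tested. Pdgfra RNA itself averaged 597 ± 69.2 CPM in PDGFRα+ and 652 ± 124 CPM in PDGFRα- libraries (SD, n = 4 each). The sort was on surface protein, which RNA does not check. PDGFRα- library 4 stood apart, with 8 blood endothelial markers summing to 666 CPM, against 97.9 to 182 CPM in the 4 PDGFRα+ libraries and 94.6 to 126 CPM in the other PDGFRα- libraries. Its sum of 5 lymphatic endothelial markers was 232 CPM, against 15 to 74.9 CPM in PDGFRα+ and 24.3 to 118 CPM in the other PDGFRα- libraries. Leukocyte markers (10 genes) summed to 29 to 77.7 CPM in PDGFRα+ and to 42.7 and 56.5 CPM in PDGFRα- libraries 2 and 1, but to 154 and 169 CPM in PDGFRα- libraries 3 and 4. None of these marker genes was at 0 in every library.

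In each of the 4 pairs of libraries with a common number, Tnfsf13b, Vcam1 and Pdpn had the higher value in PDGFRα+. In a model with the replicate number as a block, Tnfsf13b was 2.28-fold, Vcam1 1.66-fold and Pdpn 1.4-fold higher. Icam1 and Cxcl13, also well expressed, were not called, and Ccl21a, Madcam1 and Il7 were low and uneven between libraries of the same fraction. Ccl19 and Tnfsf11 were too low to test. Of the 10, 8 passed the filter on low counts, and without the block none of these 8 was called by edgeR's quasi-likelihood test (adjusted p threshold 0.05 over all genes), where 0.243% of 15643 genes were (0.192% higher and 0.0511% lower in PDGFRα+). At an unadjusted p under 0.05 there were 3, all higher in PDGFRα+, where 1087 of all 15643 genes had such a p. Unpaired DESeq2 called 0 of the 7 members to which it gave an adjusted p, where 156 of all 17384 genes were called higher and 116 lower. Unpaired edgeR with no filter on low counts called Tnfsf13b and Vcam1 higher (edgeR adjusted p = 0.00712 and 0.03). In that fit 167 of all 29254 genes were called higher and 110 lower. With the block, 3 of 8 were called higher and 0 lower, where 1.34% of all genes tested were called higher and 0.933% lower (2.27% in both directions). At an unadjusted p under 0.05 there were then 4, with Icam1 as the lower one, where 1823 of all 15643 genes had such a p. The labels do not say what libraries of the same number share. The block is given because the dispersions in the authors' deposited table match a model that contains it. In the authors' deposited table, 3 of 8 members with an adjusted p are higher in PDGFRα+, where 4.82% of all genes with one are called (2.3% higher and 2.52% lower). These are the same 3 genes. The members' median log2 fold change was -0.02 without and 0.55 with the block, beside -0.009 without and -0.005 with the block over all genes tested. Between these fits the low and uneven genes changed sign. Madcam1 went from -1.15 to 2.06, Il7 from -0.25 to 0.61 and Ccl21a from 0.20 to -0.81, while the other tested members moved little. The change of the median is therefore not read as a shift of the whole set. In bulk RNA of sorted cells, fewer cells of a type and less RNA per cell cannot be told apart.

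**Figure D1:**
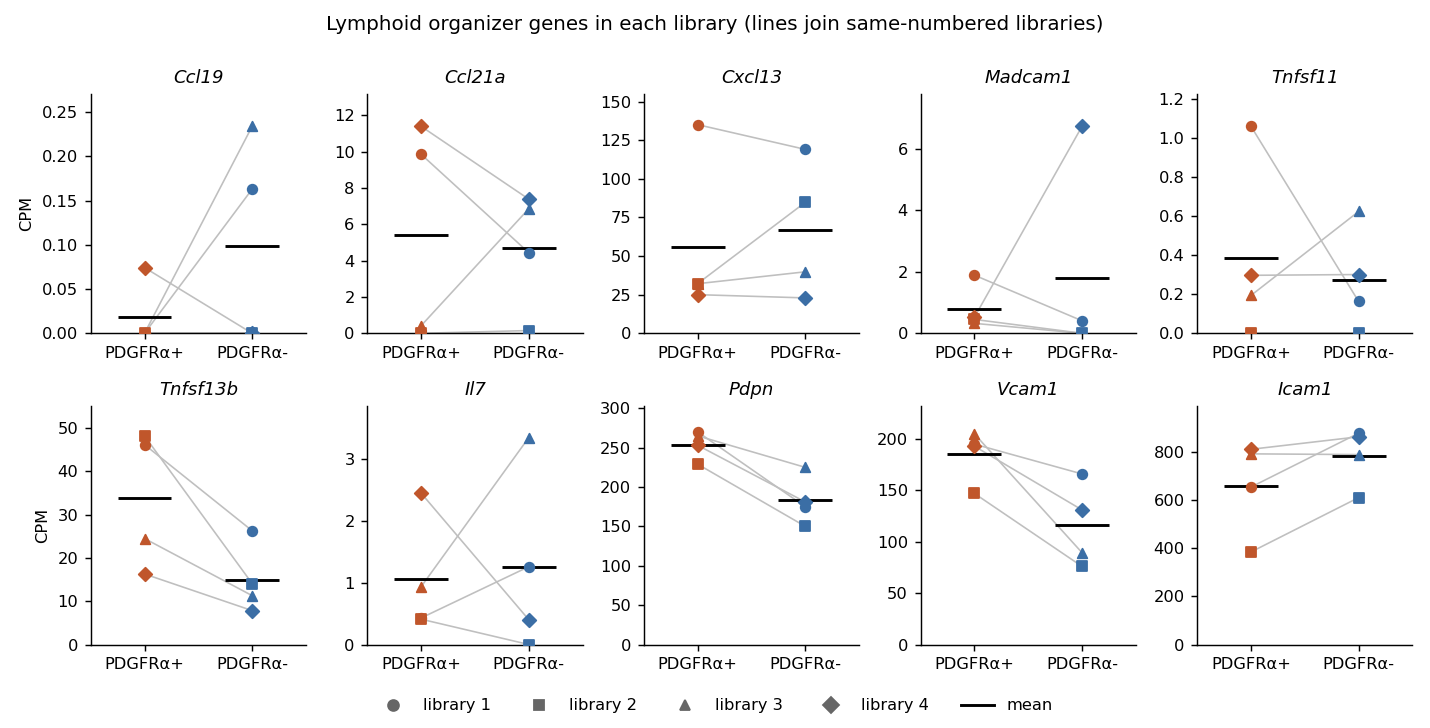
CPM of the 10 genes in each PDGFRα+ (orange) and PDGFRα- (blue) library, with the mean as a black bar and grey lines joining libraries of the same number. Lines fall from left to right in all 4 pairs for Tnfsf13b, Vcam1 and Pdpn, while the lines of the other genes run both ways, stay at 0 or, for Icam1, rise in 3 of 4 pairs.

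The levels of the members spanned more than 3 orders of magnitude. Per kilobase of exon (RPKM, from the exon lengths of GENCODE M21 and averaged over all 8 libraries), Icam1 stood at 166 and Pdpn at 120, at the percentiles 99.1 and 98.8 of 15622 tested genes with a length. Cxcl13 followed at 53.4 RPKM (percentile 96.9) and Vcam1 at 16.9 RPKM (percentile 88.2). Icam1 lay above Pdpn in 7 of 8 libraries and Pdpn above Cxcl13 in 7 of 8, while Cxcl13 lay above Vcam1 in 8 of 8. Ccl21a averaged 5.83 RPKM and Tnfsf13b 3.55 RPKM, and these neighbours did not differ beyond their spread, with Ccl21a above Tnfsf13b in 5 of 8 libraries. The level of Ccl21a is also uncertain because copies of the gene share much of its sequence. Below Ccl21a and Tnfsf13b came Madcam1 at 0.899, Il7 at 0.204, Tnfsf11 at 0.148 and Ccl19 at 0.0679 RPKM. The order among these last 4 was not stable either, since each lay above the next in 5 of 8 libraries. The members with the highest level per length were an adhesion molecule, podoplanin and the B cell chemokine gene Cxcl13.

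**Figure D2:**
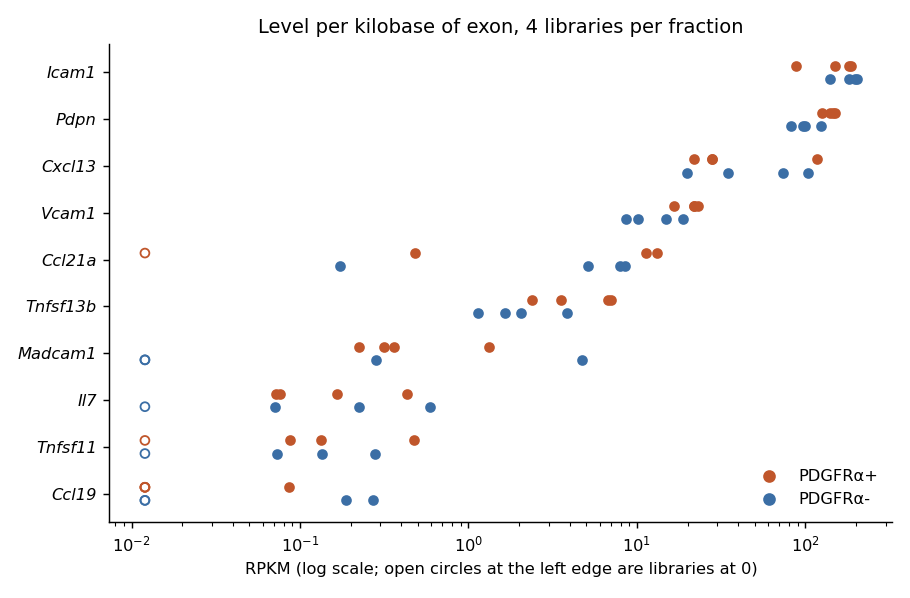
RPKM of the 10 genes on a log scale, 1 point per library, PDGFRα+ above PDGFRα- for each gene, with libraries at 0 as open circles at the left edge. Icam1, Pdpn, Cxcl13 and Vcam1 lie above 8 RPKM in every library, and the lower 4 genes overlap each other.

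Among the chemokines, Cxcl13 encodes the ligand that draws B cells and inducer cells through CXCR5. Its gene (ENSMUSG00000023078, chr5:95956951-95961068, plus strand, GRCm38) had 135, 32.2, 32.1 and 25 CPM in PDGFRα+ libraries 1 to 4, against 119, 84.8, 39.8 and 22.9 CPM in PDGFRα- libraries 1 to 4. Library 1 was highest and library 4 lowest in both fractions, and the fractions overlapped over almost their whole range. On the log2 scale the difference was -0.25 ± 0.73 (SE, 95% interval from -1.96 to 1.46, edgeR adjusted p = 0.992). With the block the interval narrowed to -0.86 to 0.17 around -0.35 (edgeR adjusted p = 0.664). The highest library was 5.4 times the lowest among PDGFRα+ and 5.2 times among PDGFRα- libraries, so Cxcl13 varied far more between libraries of a fraction than between the fractions. The start of Cxcl13 carries a sequence of the type that RelB with p52 is known to bind in mouse. The stretch before the start site is shown because this chemokine is a textbook target of the lymphotoxin signal, with the match to GGAGANTT in capitals (chr5:95956806-95956853, plus strand, RefSeq, GRCm38.p6).
Cxcl13: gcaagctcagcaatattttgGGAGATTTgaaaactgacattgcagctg
In the 250 bases before the start, GGAGANTT or its reverse complement occurs in 3.99% of 32851 RefSeq promoters. Of the 8 members with a promoter entry, Cxcl13 was the one that held it, and Vcam1 and Il7 have no entry. The motif was chosen with these windows in view, so that the match in Cxcl13 is not a finding. A match of letters is a description and no evidence of binding.

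Ccl21a encodes a ligand of CCR7, the receptor that guides T cells and dendritic cells. The gene (ENSMUSG00000094686, chr4:42772860-42773993, minus strand) was uneven. PDGFRα+ libraries 1 to 4 held 344, 0, 13 and 154 counts, or 9.86, 0, 0.42 and 11.4 CPM. PDGFRα- libraries 1 to 4 held 109, 3, 88 and 147 counts, or 4.44, 0.151, 6.86 and 7.39 CPM. Library 2 was at or near 0 in both fractions, and libraries of 1 fraction differed more than the fractions did. The log2 fold change was 0.20 ± 1.5 (SE, 95% interval from -3.21 to 3.61, edgeR adjusted p = 0.996) and, with the block, -0.81 (edgeR adjusted p = 0.853), so the sign depends on the model. The mouse genome holds near-identical copies of this gene. The copy Gm21541 has a transcript of the same 870 bases that differs at 6 positions, 2 of them coding. The coding stretch around C269T, counted from 1 at the 5′ end of the transcript, is shown with the differing base in capitals, to show how few bases tell reads of the copies apart.
Ccl21a: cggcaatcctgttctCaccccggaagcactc
Gm21541: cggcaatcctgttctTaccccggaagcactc
Of all 50-base stretches of the Ccl21a transcript, 71.6% occur also in transcripts of Ccl21b, Gm10591, Gm13304 or Gm21541, and 61.3% of 75-base stretches do. The rows of these copies had 0 counts in every library, so reads shared with them were not counted there. How reads that match several places were counted is not given in the sources used here, and the counts of Ccl21a are therefore uncertain in level. If such reads were left out, its level is too low.

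Ccl19, the other CCR7 ligand gene (ENSMUSG00000071005, chr4:42754525-42756577, minus strand), was all but absent. PDGFRα+ libraries 1 to 4 held 0, 0, 0 and 1 counts of it, against 4, 0, 3 and 0 in PDGFRα- libraries 1 to 4. These 8 counts in all allow no fold change. For this gene 52% of 50-base stretches occur in transcripts of other genes, among them the pseudogenes Ccl19-ps1 and Ccl19-ps3. The table holds 12 other rows that carry the names Ccl19 or Ccl21a or share such stretches with them. Of these, 11 had 0 counts in every library, and Gm12407 had 5 counts in 1 library.

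Of the cytokine genes, Tnfsf13b (ENSMUSG00000031497, chr8:10006467-10039072, plus strand) showed the largest difference with a call. It encodes BAFF, a survival factor of B cells. It had 46.2, 48.2, 24.5 and 16.3 CPM in PDGFRα+ libraries 1 to 4, against 26.3, 14.1, 11.3 and 7.84 CPM in PDGFRα- libraries 1 to 4. Each PDGFRα+ library was above the PDGFRα- library of its number, by log2 ratios of 0.81, 1.77, 1.11 and 1.06, but the fractions overlapped, because PDGFRα- library 1 exceeded PDGFRα+ libraries 3 and 4. A higher value in all 4 pairs was found for 10.3% of all genes tested, and a lower one for 10.2%. The log2 fold change was 1.18 ± 0.41 (SE, 95% interval from 0.28 to 2.08, edgeR adjusted p = 0.449) without the block, and 1.19 ± 0.24 (95% interval from 0.69 to 1.69, edgeR adjusted p = 0.0133) with it. The call with the block was lost without number 1, 2 or 3, with edgeR adjusted p values up to 0.0831. Myeloid cells also make BAFF, and the library with the highest sum of leukocyte markers, PDGFRα- library 4 at 169 CPM, had the lowest Tnfsf13b of all 8. The part of leukocyte RNA in the Tnfsf13b values was not tested. In both fractions libraries 1 and 2 held the most and library 4 the least Tnfsf13b. The 3 genes with the most similar profile over the 8 libraries, among 6248 with a mean of at least 20 CPM, were Cavin3, Psmd2 and Tmem176b, with Pearson's r of 0.995, 0.986 and 0.976 on log2 CPM, given as a description with no test.

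Tnfsf11 encodes RANKL, a ligand that stromal cells under the epithelium present to M cell precursors. Its gene (ENSMUSG00000022015, chr14:78277445-78308043, minus strand) was sparse. PDGFRα+ libraries 1 to 4 held 37, 0, 6 and 4 counts of it, against 4, 0, 8 and 6 in PDGFRα- libraries 1 to 4. The 37 counts of PDGFRα+ library 1 made up most of that fraction's total of 47, and the other libraries did not separate. The gene did not pass the filter on low counts. Il7, which encodes the lymphocyte survival cytokine interleukin 7 (ENSMUSG00000040329, chr3:7569994-7613760, minus strand), had 15, 10, 29 and 33 counts in PDGFRα+ and 31, 0, 43 and 8 counts in PDGFRα- libraries 1 to 4. In CPM these were 0.43, 0.41, 0.936 and 2.45 for PDGFRα+ and 1.26, 0, 3.35 and 0.402 for PDGFRα-. The fractions overlapped fully, with a log2 fold change of -0.25 without the block (95% interval from -3.13 to 2.63, edgeR adjusted p = 0.995) and 0.61 with it (edgeR adjusted p = 0.952). Exons of Il7 overlap Gm16685 on the other strand.

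Vcam1, which encodes a ligand of the integrin α4β1 on lymphocytes (ENSMUSG00000027962, chr3:116109949-116129688, minus strand), was higher in PDGFRα+ cells with the block. It had 195, 147, 205 and 193 CPM in PDGFRα+ libraries 1 to 4, against 166, 76.0, 89.4 and 131 CPM in PDGFRα- libraries 1 to 4. PDGFRα+ library 2 was the lowest of its fraction and fell below PDGFRα- library 1, so the fractions overlapped at that point. Without the block the log2 fold change was 0.68 ± 0.22 (SE, 95% interval from 0.20 to 1.16, edgeR adjusted p = 0.393), and with it 0.73 ± 0.15 (95% interval from 0.41 to 1.05, edgeR adjusted p = 0.0165). The call with the block was lost without number 2 or 3 (highest edgeR adjusted p = 0.196). Endothelium can express Vcam1, and PDGFRα- library 4, with the highest endothelial sums, had a Vcam1 value inside the range of its fraction. The part of endothelial RNA in the Vcam1 values was not tested. The most similar profiles were those of Hic1, Traf7 and Nrd1 (Pearson's r of 0.965, 0.963 and 0.955 over 8 libraries). Exons of Vcam1 overlap Gm43109 on the other strand.

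Pdpn encodes podoplanin, a mucin-type surface protein of fibroblastic reticular cells and lymphatic endothelium that engages CLEC2 on platelets and dendritic cells. The gene (ENSMUSG00000028583, chr4:143267431-143299564, minus strand) had 270, 229, 265 and 253 CPM in PDGFRα+ libraries 1 to 4, against 175, 150, 225 and 181 CPM in PDGFRα- libraries 1 to 4. This was the member whose fractions did not overlap, with every PDGFRα+ library above every PDGFRα- library, as for 2.69% of all genes tested (2.36% had every PDGFRα+ library below, 5.05% in both directions). The closest values were 229 CPM in PDGFRα+ library 2 and 225 CPM in PDGFRα- library 3. Without the block the log2 fold change was 0.48 ± 0.16 (SE, 95% interval from 0.14 to 0.81, edgeR adjusted p = 0.391), and with it 0.49 ± 0.12 (95% interval from 0.24 to 0.74, edgeR adjusted p = 0.0419). The call with the block was lost without any 1 of the 4 numbers (edgeR adjusted p from 0.102 to 0.193). Libraries of the PDGFRα+ fraction were close to each other, with a coefficient of variation of 7.19%, against 17.1% in PDGFRα-. Lymphatic marker sums were highest in PDGFRα- libraries 3 and 4, at 118 and 232 CPM, with Pdpn at 225 and 181 CPM. PDGFRα- libraries 1 and 2 had sums of 24.3 and 27.5 CPM and Pdpn at 175 and 150 CPM. In PDGFRα+ libraries the sums were 15 to 74.9 CPM. The part of lymphatic RNA in the Pdpn values was not tested. The most similar profiles were those of Serpine2, Gucy1b1 and Lbh (Pearson's r of 0.945, 0.921 and 0.888 over 8 libraries).

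Icam1, which encodes the ligand of leukocyte β2 integrins (ENSMUSG00000037405, chr9:21015985-21028817, plus strand), went the other way in 3 of 4 pairs and was not called. It had 655, 385, 793 and 812 CPM in PDGFRα+ libraries 1 to 4, against 879, 611, 790 and 864 CPM in PDGFRα- libraries 1 to 4. Library 2 was lowest in both fractions, and the fractions overlapped. The log2 fold change was -0.25 ± 0.22 (SE, 95% interval from -0.72 to 0.22, edgeR adjusted p = 0.948). With the block it was -0.29 ± 0.12, with a 95% interval from -0.56 to -0.03 that leaves out 0 (unadjusted p = 0.0305, edgeR adjusted p = 0.337). Its exons overlap Gm47079 on the other strand, and 13.1% of its 50-base stretches occur in transcripts of other genes. Ahnak, Zfp131 and Msl2 had the most similar profiles (Pearson's r of 0.976, 0.966 and 0.965 over 8 libraries). Icam1 and Vcam1, although both adhesion genes of the immunoglobulin family, thus had fold changes of opposite sign with and without the block.

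Madcam1 encodes the ligand of the gut-homing integrin α4β7, known from high endothelial venules and from organizer cells. Its gene (ENSMUSG00000020310, chr10:79664559-79668537, plus strand) was low in all libraries but PDGFRα- library 4. Counts were 66, 11, 10 and 7 for PDGFRα+ libraries 1 to 4, against 10, 0, 0 and 134 for PDGFRα- libraries 1 to 4. In CPM these were 1.89, 0.451, 0.323 and 0.520 for PDGFRα+ and 0.407, 0, 0 and 6.73 for PDGFRα-. PDGFRα- library 4 thus held most of the fraction's counts, and it was also the library with 666 CPM of blood endothelial markers. The part of endothelial RNA in the Madcam1 value was not tested. The log2 fold change was -1.15 ± 1.57 (SE, 95% interval from -4.51 to 2.21, edgeR adjusted p = 0.971). It was 2.44 without PDGFRα- library 4 (edgeR adjusted p = 0.949) and 2.06 with the block (edgeR adjusted p = 0.780), so Madcam1 has no stable direction here. In the authors' deposited table it is listed as 5.385-fold higher with an adjusted p of 0.404.

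**Figure D3:**
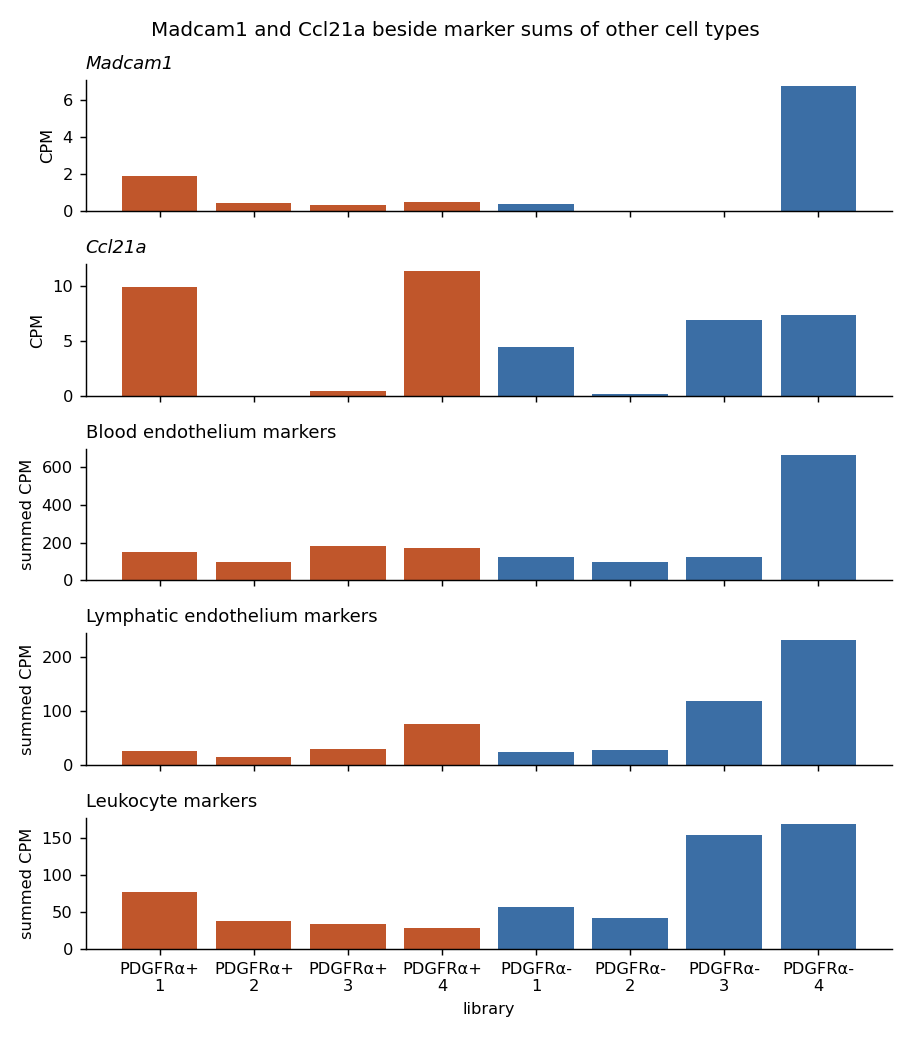
CPM of Madcam1 and Ccl21a (top panels) and summed CPM of the blood endothelial, lymphatic endothelial and leukocyte marker lists (lower panels) in each library, PDGFRα+ in orange and PDGFRα- in blue. Madcam1 reaches 6.73 CPM in PDGFRα- library 4, where the blood endothelial sum is 666 CPM, while Ccl21a is highest in PDGFRα+ libraries 1 and 4.

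The stretches before the starts of Icam1 and Madcam1 are shown because each holds a pair of matches to GGAANNNCC, part of the letters that classical NF-κB dimers bind, in capitals (chr9:21015767-21015884 and chr10:79664456-79664517, plus strand, RefSeq, GRCm38.p6).
Icam1: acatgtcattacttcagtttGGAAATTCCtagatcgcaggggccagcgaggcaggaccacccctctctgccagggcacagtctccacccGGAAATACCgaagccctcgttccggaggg
Madcam1: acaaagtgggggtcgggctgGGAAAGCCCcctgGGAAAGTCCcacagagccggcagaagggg
These letters or their reverse complement occur in the 250 bases before the start of 15.7% of 32851 promoters, so 1 match is common. Ccl19 and Ccl21a hold 1 match each, and the windows of Pdpn, Tnfsf11, Cxcl13 and both starts of Tnfsf13b hold none. The motifs were chosen with these windows in view. The genes called higher with the block and having a promoter entry, Pdpn and Tnfsf13b, held no match to either motif in this window, which says only that these letters are not there.

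**Figure D4:**
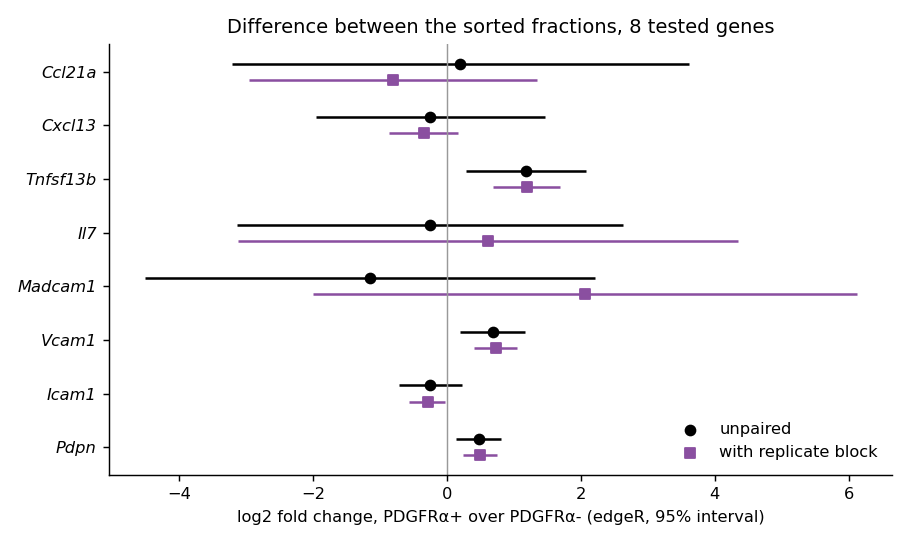
Log2 fold change of PDGFRα+ over PDGFRα- libraries for the 8 tested genes with 95% intervals, from edgeR without (black) and with the replicate block (purple). The intervals of Tnfsf13b, Vcam1 and Pdpn lie above 0 in both fits, and those of Madcam1, Il7 and Ccl21a are the widest.

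The other genes of the pathway were read from 3 lists. None of the receptor and transducer genes was called. Ltbr, the floxed receptor gene, averaged 64.0 ± 9.21 CPM in PDGFRα+ and 67.9 ± 27.3 CPM in PDGFRα- libraries (SD, n = 4 each, log2 fold change -0.09, edgeR adjusted p = 0.991), and whole-gene counts do not check the deletion. Of 16 genes for lymphotoxin and TNF receptors, TRAF and IAP adaptors, IκB kinases and NF-κB subunits, all were tested and 0 were called in either edgeR fit or by DESeq2 with or without the block. Over all genes tested, edgeR called 0.243% without and 2.27% with the block. DESeq2 called 272 of 17384 genes without and 809 of 16776 with it. At such shares 0 calls among 16 genes are no result about the list. With edgeR, 0 had an unadjusted p under 0.05 in the unpaired fit and 1 in the blocked fit. Over all 15643 genes, 1087 and 1823 had such a p in these fits. The log2 fold changes of the list in the unpaired fit ran from -0.20 to 0.45 around a median of -0.05. Relb averaged 46.4 ± 18.1 CPM in PDGFRα+ and 45.5 ± 8.65 CPM in PDGFRα- libraries, and Nfkb2, the gene of p52, 108 ± 29.1 CPM in PDGFRα+ and 123 ± 12.3 CPM in PDGFRα- libraries (SD, n = 4 each).

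Of 24 other genes known from lymphoid stroma or follicular dendritic cells, 19 were tested, 1 was called higher without the block and 2 with it, and 0 lower in either edgeR fit, where 0.192% of all genes tested were called higher without and 1.34% with the block. DESeq2 called 3 higher and 0 lower without the block, where 156 of all 17384 genes were called higher and 116 lower. With the block DESeq2 called 5 higher and 2 lower, where 386 of all 16776 genes were called higher and 423 lower. The lower ones in the list were Il6 at a log2 fold change of -0.48 (DESeq2 adjusted p = 0.0279) and C4b at -0.37 (DESeq2 adjusted p = 0.0082). With no filter on low counts, unpaired edgeR called 4 higher and 1 lower, where 167 of all 29254 genes were called higher and 110 lower. Tnc encodes the matrix protein tenascin C, found in lymphoid conduits and elsewhere. It had 736, 1020, 1030 and 1110 CPM in PDGFRα+ libraries 1 to 4, against 283, 222, 347 and 509 CPM in PDGFRα- libraries 1 to 4, with no overlap. Without the block its log2 fold change was 1.52 (edgeR adjusted p = 0.0165). This call was lost without PDGFRα+ library 2 or 3 or PDGFRα- library 1, 2 or 3 (edgeR adjusted p up to 0.095). With the block the log2 fold change was 1.57 (edgeR adjusted p = 5.81e-05), and that call was kept without any 1 number (edgeR adjusted p up to 0.00609). Unpaired DESeq2 called Tnc too (DESeq2 adjusted p = 6.66e-06). Exons of Tnc overlap 8030451A03Rik on the other strand. Nkx2-3 encodes a homeobox factor of intestinal mesenchyme that is needed for normal Madcam1 expression in mouse. It had 142, 178, 151 and 104 CPM in PDGFRα+ libraries 1 to 4, against 85.6, 98.6, 86.1 and 77.0 CPM in PDGFRα- libraries 1 to 4. Here too the fractions did not overlap. In the filtered edgeR fits Nkx2-3 was called with the block (log2 fold change 0.71, edgeR adjusted p = 0.00735) and not without it (0.73, edgeR adjusted p = 0.158). Without the block it was called by DESeq2 (DESeq2 adjusted p = 0.0215) and by edgeR with no filter on low counts (edgeR adjusted p = 0.0173). The block's call was lost without number 3. Without the block, the tested genes of this list had a median log2 fold change of 0.44, with 13 of 19 positive, beside a median of -0.01 and 49.1% positive over all genes tested. Of its 7 genes with an unadjusted edgeR p under 0.05, 6 were higher, where 1087 of all 15643 genes had such a p. With the block there were 9, of which 6 were higher, where 1823 of all 15643 genes had such a p. The follicular dendritic cell marker Cr2 averaged 0.611 ± 0.793 CPM in PDGFRα+ and 0.503 ± 0.711 CPM in PDGFRα- libraries. Fcer2a was at 0 in all PDGFRα+ libraries and averaged 0.0981 ± 0.170 CPM in PDGFRα- libraries. Fcgr2b, from the same marker list, was higher, at 1.67 ± 1.05 CPM in PDGFRα+ and 3.62 ± 5.72 CPM in PDGFRα- libraries. Its highest value was 12.2 CPM, in PDGFRα- library 3. Tnfsf13, Prnp and Ccl20 had 0 counts everywhere. Exons of Tnfsf13 and Prnp overlap a gene on the same strand, so that their 0 is not read as absence.

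Of 20 genes for receptors of the members' products and for ligands upstream of them, 8 passed the filter on low counts. Of these, 0 were called in either edgeR fit, where 0.243% of all genes tested were called without and 2.27% with the block. At an unadjusted edgeR p under 0.05 there was 1 in each fit. Over all 15643 genes, 1087 had such a p without and 1823 with the block. DESeq2 called 0 of the list with and without the block, where 272 of 17384 genes were called without and 809 of 16776 with it. At such shares these counts are no result about the list. Il2rg had 0 counts everywhere, but its exons overlap Gm20489 on the same strand, so that its 0 is not read as absence. The row used for Itgam has an identifier that GENCODE M21 names Gm49368, with exons that overlap those of Itgam on the same strand. Its low counts are therefore not read as absence either. Lta and Ltb, which encode the lymphotoxin subunits, were at 0 in every PDGFRα+ library and averaged 0.176 ± 0.352 and 0.230 ± 0.266 CPM in PDGFRα- libraries. Lta had 14 counts in PDGFRα- library 4 alone, and Ltb had 6 and 9 counts in PDGFRα- libraries 3 and 4 alone. These libraries had leukocyte marker sums of 154 and 169 CPM, and the part of leukocyte RNA was not tested. Tnf and Tnfsf14, also upstream ligands, averaged 0.361 and 0.383 CPM in PDGFRα+ and 0.329 and 0.325 CPM in PDGFRα- libraries. Itgb1, the integrin β1 gene that stromal cells express themselves, stood at 766 ± 56.1 CPM in PDGFRα+ and 614 ± 37.4 CPM in PDGFRα- libraries (log2 fold change 0.32, edgeR adjusted p = 0.674).

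**Figure D5:**
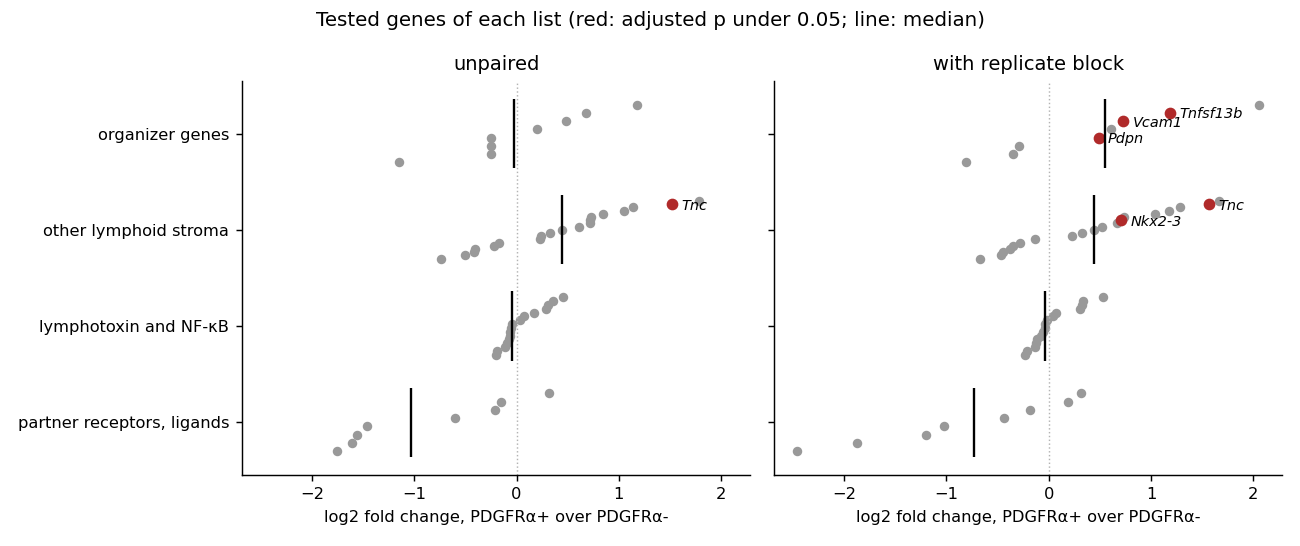
Log2 fold change of PDGFRα+ over PDGFRα- for the tested genes of 4 lists, without (left) and with the replicate block (right), with genes past the adjusted p threshold in red and the median of each list as a line. Tnc is red on both sides, while Tnfsf13b, Vcam1, Pdpn and Nkx2-3 are red with the block alone, and the lymphotoxin and NF-κB list stays between -0.23 and 0.53 in both fits.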

How the data were processed

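Per the labels' protocols, the 8 RNA samples were prepared with a strand-keeping total RNA kit made for small amounts of RNA. Per the submitters' processing notes, reads were trimmed with cutadapt 3.4, aligned with STAR 2.7.3a to GRCm38 and counted with featureCounts 2.0.1, followed by DESeq2. Strand setting, annotation release and other options: not given in the sources used here. Raw counts per gene were deposited. The deposited score columns hold size-factor scaled values that the authors rounded, and were not tested. The authors' comparison was deposited as log2 and as a ratio (linear fold), with its raw and adjusted p-value.

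Counts were tested with edgeR 4.0.16 in R 4.3.3 (TMM, filterByExpr, robust quasi-likelihood fit, group as the only term, Benjamini-Hochberg threshold 0.05 over 15643 genes). DESeq2 1.42.0 was an alternative. CPM uses TMM-scaled library sizes, and log2 CPM a prior count of 2. The scripts were tested on simulated data. Positions, lengths and overlaps come from GENCODE M21 (GRCm38), which holds 53706 of 53801 identifiers. Where a name had several rows, the row with the most counts was used.

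The fit with the replicate number as a block was an alternative. Deviations of same-numbered libraries correlated at 0.23, 0.18, 0.02 and 0.25, and the value for number 3 lies under the 0.1 set for pairing. By the same measure, 7 of the 8 libraries correlated best with their own number among the libraries of the other fraction. The authors' dispersions differed by at most 0.000369% over 29254 genes from those of DESeq2 fitted with number plus group, and by up to 7500% from those with group alone. Results of the blocked model therefore stand next to unpaired results. The members and lists were chosen with earlier results of these data known. The text names all 10 members, list genes called in either edgeR fit, genes that bear on the sort or design, and for members of at least 20 CPM the 3 genes with the highest correlation. Ltb, Lta, Tnf, Tnfsf14, Relb, Nfkb2, Itgb1, Itgam, Cr2, Fcer2a, Fcgr2b, Il6, C4b and genes at 0 were named after their values were seen.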

Additional observations from a re-analysis of the deposited data

Results flagged for a closer look

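In 4 of 20 groups of 4 libraries (10 genes, 2 fractions), 1 library stood apart from the others by a gap larger, relative to the group's range, than Dixon's 95% critical value, where chance gives about 1 in 20 if values are close to normal, which low CPM values are not. Cxcl13 stood at 135 CPM in PDGFRα+ library 1, and the gene was also highest in PDGFRα- library 1. Madcam1 stood at 1.89 CPM in PDGFRα+ library 1 and at 6.73 CPM in PDGFRα- library 4. Ccl19 stood at 0.0743 CPM in PDGFRα+ library 4, a single count with 0 counts in the other 3 libraries, so that its gap equals the whole range by construction.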

How the results depend on the processing

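Over all genes, 38 were called by the unpaired edgeR fit, 355 with the replicate block, 277 with no filter on low counts, 272 by DESeq2 and 809 by DESeq2 with the replicate block. Leaving out 1 library gave 7 to 48, and leaving out 1 number with the block 187, 248, 97 and 298 (numbers 1 to 4). Of the organizer genes 0 were called in the unpaired fit, 3 with the block or by DESeq2 with the block, 2 with no filter (Tnfsf13b and Vcam1), 0 without any 1 library, and 0 to 2 with the block and without 1 number. Of the other lymphoid stroma list 1 was called, 2 with the block, 5 with no filter, 3 by DESeq2, 7 by DESeq2 with the block, 0 to 2 without 1 library and 1 to 3 with the block and without 1 number. The lymphotoxin and partner lists had 0 calls in every setting run. Another normalization (RLE) kept each of these counts within 1.5 times. Signs turned for Ccl21a, Madcam1, Il7 and Cxcl13 (log2 fold changes). Ccl21a had 0.20 in the unpaired fit, -0.81 with the block and -0.98 by DESeq2 with the block, with -0.45 to 0.62 without 1 library and -2.09, -0.38, 0.33 and -1.95 with the block and without numbers 1, 2, 3 and 4. Madcam1 had -1.15, 2.06 and 2.43 in the same 3 fits, with -2.06 to 2.44 and with 2.00, 0.89, 1.27 and 3.79. Il7 had -0.25, 0.61 and 0.69, with -1.07 to 0.90 and with 1.77, -0.48, 1.84 and -0.35. Cxcl13 ran from -1.16 to 0.20 and from -0.53 to 0.00. The cause was not tested. Tnfsf13b, Vcam1, Pdpn and Icam1 kept their direction in every setting run, as did Tnc and Nkx2-3. Unpaired DESeq2 gave Madcam1 no adjusted p. At 3 counts a library resolves 0.086 to 0.234 CPM, which limits Ccl19, Tnfsf11 and Il7.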
